A study of Mus musculus with 10 samples.

Results

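The ephrin, netrin and slit families are guidance cues: short-range or secreted signals that steer growing axons and, in part, blood vessel sprouts, together with the receptors that read them. Genes were chosen by symbol alone, without use of their levels: Eph receptors (Epha and Ephb), ephrins (Efna and Efnb), netrins and netrin-Gs (Ntn and Ntng), slits, Robo receptors, Unc5 receptors and Dcc. Of 39 matching symbols in the probe annotation, 37 had a transcript cluster (the set of probes that reads 1 transcribed locus) of their own, among 30063 genes in all. All 37 passed the filter on low values and belong to the 23255 genes tested. Ntng2 and Ntn3 are on clusters shared with another gene, 6530402F18Rik and Tbc1d24, and have no value of their own here. The Eph receptor Ephb2 is not among the matching symbols and was not analysed.

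Whole retinas of C57BL/6JJmsSlc mice were profiled on 10 microarrays of total RNA, 2 for each of 5 groups. One group was untreated at postnatal day 7 and another untreated at day 17. The other 3 were day 17 retinas with oxygen-induced retinopathy (OIR), a model of vessel loss and regrowth in which pups breathe 75% oxygen from day 7 for 5 days and then return to air: one had no injection, another had phosphate-buffered saline (PBS) injected into the vitreous, and the last had ISOX DUAL, which the labels call an inhibitor. Injections were made when the hyperoxia ended. The untreated and uninjected groups thus lack the injection, and the PBS group shares it with the ISOX DUAL group. The labels give no dose, no sex, no target of the inhibitor and no statement on whether arrays of a group came from separate or pooled animals, so p-values reflect the variation between single arrays, and that variation may be technical.

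Values are log2 levels, so a difference of 1 is a 2-fold difference. Of the 37 guidance genes, 31 lay above the median of the array's negative control probes on all 10 arrays. Epha1 was below it on all 10. Robo3 and Slit3 were above it on 2 arrays each, Epha2 and Ntn1 on 8, and Robo4 on 9. Differences were fitted for all genes with limma, and a gene was called where its p, adjusted by the Benjamini-Hochberg method over all genes tested, was under 0.05. The median standard error (SE) of a difference among the guidance genes was 0.135, and its 95% interval reached a median of 0.312 to either side. Markers of the tissue fitted the label: the 5 rod genes measured averaged 11.07 to 11.30 on the day 17 arrays. The 10 lens genes listed, some of which retina also expresses, averaged 5.69 to 6.13 on the uninjected and untreated arrays of both ages, 6.15 and 6.47 on the PBS arrays, and 6.62 and 8.41 on the ISOX DUAL arrays. The arrays of a group differed unequally over the guidance genes: the standard deviation of the difference between a group's arrays was 0.387 at day 7, 0.272 in untreated day 17 retina, 0.161 in uninjected OIR, 0.100 with ISOX DUAL and 0.0894 with PBS. The fit pools this spread, so SEs and p-values between day 7 and untreated day 17 retina may be too small. Those between the PBS and ISOX DUAL groups may be too large.

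As background, ephrins are ligands bound to the cell surface, tethered by a lipid anchor in the A class and spanning the membrane in the B class, and Eph receptors are receptor tyrosine kinases that read them on contact. In the retina, gradients of EphA receptors and ephrins map the axons of ganglion cells onto the brain. Netrins are laminin-like proteins that attract through Dcc and repel through Unc5 receptors. Slits are large secreted proteins read by Robo receptors, which keep axons from straying. In vessels, ephrin-B2 marks arteries and Ephb4 marks veins, and Unc5b and Robo4 are receptors of endothelial cells.

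The first comparison asked how guidance genes differ between day 7 and day 17 of normal retina. Limma called 10 of 37 (27.0%), where 10.6% of all genes tested were called. Lower at day 17 were 7 of 37, against 5.29% of all genes, and higher were 3 of 37, against 5.26% of all genes. The genes that fell were Robo1, Robo2, Robo3, the receptors Epha5 and Epha8, and the ephrins Efna2 and Efnb2. Those that rose were Ntng1, Unc5d and Epha6. The median difference of the guidance genes was -0.08, beside 0.01 over all genes tested, and 15 of 37 were above 0, against 52% of all genes. By class, the median was -0.74 for the 4 Robo receptors, -0.28 for the 3 ephrin-B ligands, -0.17 for the 4 EphB receptors, -0.16 for the 5 ephrin-A ligands, 0.06 for the 9 EphA receptors, 0.06 for the 3 slits, 0.09 for the 5 netrin receptors and 0.14 for the 4 netrins. The plot of differences between the ages and in OIR shows all 37.

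**Figure D1:**
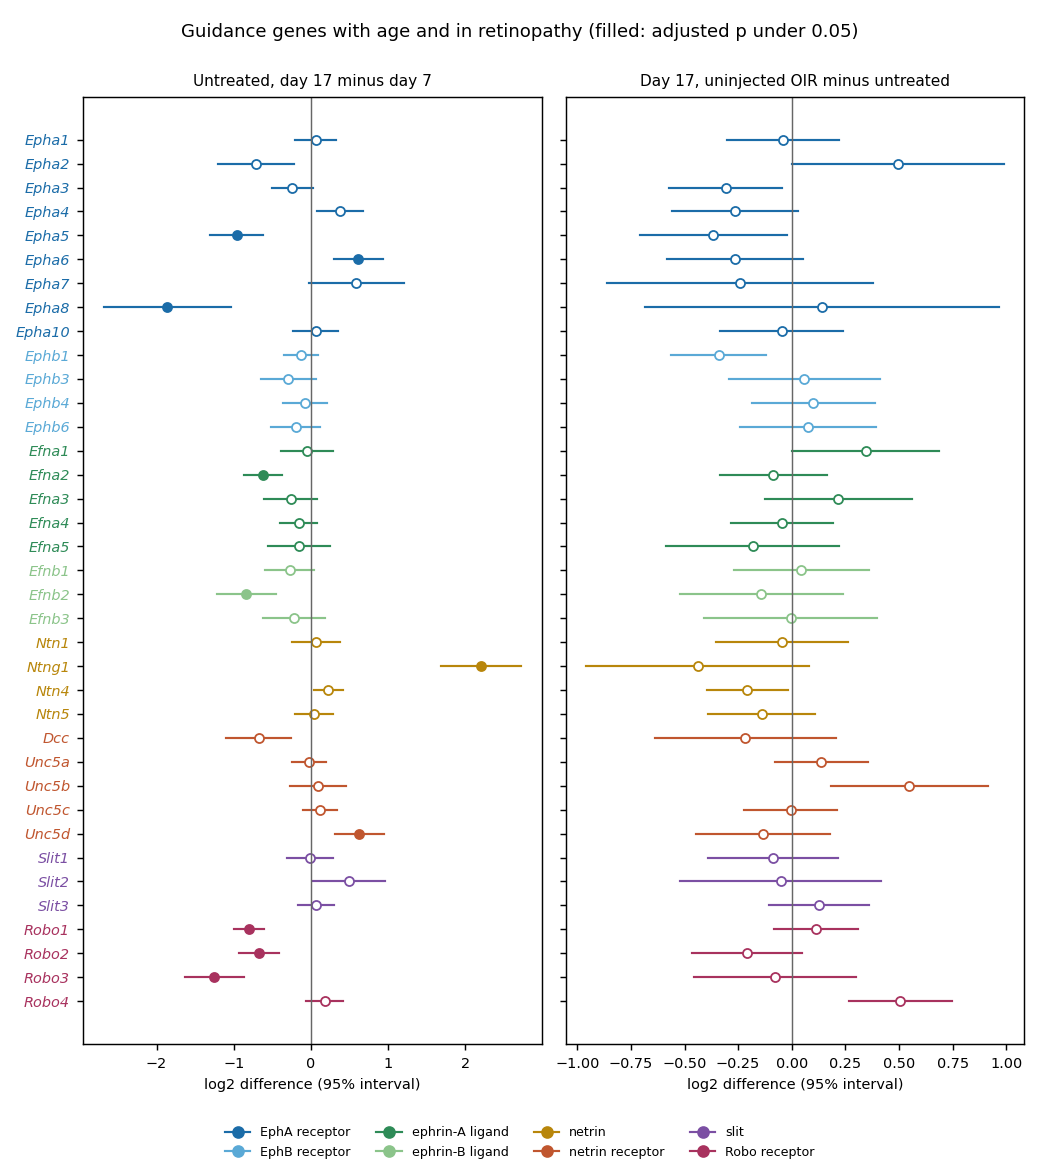
Log2 difference of each of the 37 guidance genes between untreated day 17 and day 7 retina (left) and between uninjected OIR and untreated day 17 retina (right). Points are fitted differences, lines are 95% intervals, colours are the gene classes, and filled points have an adjusted p under 0.05; there are 10 filled points on the left, from Ntng1 at 2.20 to Epha8 at -1.86, and 0 on the right.

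Of the 4 Robo receptors, 3 were called, all of them lower, where 5.29% of all genes tested were called lower. Robo4, which was not called, also had its arrays separated between the ages, so separation does not set the called genes apart. The share of all genes separated between the ages is not given here. Robo1, a slit receptor of axons and migrating neurons, stood at 8.13 and 8.26 at day 7 and at 7.41 and 7.39 in untreated day 17 retina. The 4 OIR arrays with an injection lay at 7.36 to 7.44 and the uninjected OIR arrays at 7.51 and 7.52. All day 17 arrays were thus below both day 7 arrays. From day 7 to day 17 it fell 1.74-fold (-0.80 ± 0.08 SE, adjusted p = 0.0014).

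Robo2, the slit receptor that ganglion cell axons use with Robo1, stood at 8.99 and 9.04 at day 7 and at 8.45 and 8.23 at day 17. It fell 1.60-fold (-0.68 ± 0.11 SE, adjusted p = 0.0079). Robo3, a divergent family member known for letting commissural axons cross the midline, stood at 6.65 and 7.18 at day 7 and at 5.63 and 5.70 at day 17. Both day 7 arrays were above the negative control median and every day 17 array of the 4 groups was below it, so the fall (-1.25 ± 0.16 SE, adjusted p = 0.0033) has no exact fold. Robo4, the endothelial member, stood at 5.95 and 6.11 at day 7 and at 6.17 and 6.25 at day 17, and its difference did not pass the test (0.18 ± 0.10 SE, adjusted p = 0.392).

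The slits were not called. Slit2, a repellent of ganglion cell axons, stood at 8.67 and 7.99 at day 7 and at 8.94 and 8.70 at day 17 (difference 0.49 ± 0.20 SE, adjusted p = 0.198). The first day 7 array lay near the day 17 arrays and the second well below them. Its value rested on those arrays: the difference was 0.83 (adjusted p 0.011) without the first day 7 array and 0.15 (adjusted p 0.536) without the second. Slit1 stood at 7.33 and 7.62 at day 7 and at 7.34 and 7.58 at day 17, so its groups overlapped (difference -0.01). Slit3 lay below the negative control median on all 4 arrays but 1.

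The largest difference among the guidance genes was that of Ntng1, netrin-G1, a lipid-anchored relative of the netrins that binds the synaptic adhesion protein Lrrc4c and does not bind Dcc. It stood at 6.95 and 6.20 at day 7 and at 8.94 and 8.61 at day 17. The groups lay far apart although the day 7 arrays differed from each other by more than those of day 17. It rose 4.59-fold (2.20 ± 0.22 SE, adjusted p = 0.0012). It is the 1 guidance gene still called when only the 4 arrays of these groups are fitted.

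The secreted netrins were not called. Ntn1, the attractant that guides ganglion cell axons out at the optic disc, stood at 5.89 and 6.21 at day 7 and at 6.00 and 6.23 at day 17, near the negative control median (difference 0.06 ± 0.13 SE). Ntn4, a netrin of basement membranes, stood at 6.29 and 6.34 at day 7 and at 6.54 in both day 17 arrays (0.22 ± 0.08 SE, adjusted p = 0.147). Its groups did not overlap, and the difference did not pass the test.

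Among the netrin receptors, Unc5d, which also binds Flrt proteins, stood at 7.32 and 6.91 at day 7 and at 7.71 and 7.77 at day 17. It rose 1.54-fold (0.63 ± 0.13 SE, adjusted p = 0.0243), and this call was lost in 5 of the 10 fits that left out 1 array: either ISOX DUAL array, either untreated day 17 array, or the second day 7 array. Dcc, the attractive netrin receptor, stood at 9.14 and 8.97 at day 7 and at 8.66 and 8.09 at day 17 (-0.68 ± 0.18 SE, adjusted p = 0.0554). It did not pass the test. The difference was -0.96 (adjusted p 0.013) without the first untreated day 17 array and -0.39 (adjusted p 0.140) without the second. Unc5b, the endothelial netrin receptor, stood at 6.18 and 6.48 at day 7 and at 6.29 and 6.56 at day 17, so its groups overlapped (0.09 ± 0.16 SE).

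Eph receptors went both ways. Epha5, a receptor of the ganglion cell mapping gradient, stood at 9.08 and 8.77 at day 7 and at 8.13 and 7.79 at day 17, and fell 1.95-fold (-0.96 ± 0.15 SE, adjusted p = 0.0064). Epha8 stood at 8.33 and 9.53 at day 7 and at 6.79 and 7.35 at day 17. Its day 7 arrays lay further apart than those of any other guidance gene, but both were above day 17. It fell 3.63-fold (-1.86 ± 0.36 SE, adjusted p = 0.0152), and without the first untreated day 17 array the adjusted p was 0.086. Epha6 stood at 6.49 and 6.48 at day 7 and at 7.18 and 7.02 at day 17, and rose 1.53-fold (0.61 ± 0.14 SE, adjusted p = 0.0283). That call was lost without any 1 of the 4 arrays compared, with adjusted p of 0.051 to 0.131.

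Of the other Eph receptors named for roles in retina or vessels and measured here, none was called. Epha4, which binds ephrins of both classes, stood at 7.34 and 7.46 at day 7 and at 7.60 and 7.96 at day 17 (0.38 ± 0.13 SE, adjusted p = 0.115). Epha7 stood at 8.46 and 7.61 at day 7 and at 8.89 and 8.36 at day 17, with overlapping groups (0.59 ± 0.27 SE, adjusted p = 0.246). Epha2, an Eph of epithelia and vessels, stood at 6.32 and 7.02 at day 7 and at 5.81 and 6.10 at day 17 (-0.71 ± 0.21 SE, adjusted p = 0.0767). Single arrays decided each of these values. Epha4 differed by 0.56 without the first untreated day 17 array (adjusted p 0.031) and by 0.20 without the second (0.322). Epha7 differed by 1.01 without the first day 7 array (0.027) and by 0.16 without the second (0.676). Epha2 differed by -1.07 without the first day 7 array (0.0075) and by -0.36 without the second (0.203). Ephb4, the venous receptor, stood at 6.25 and 6.52 at day 7 and at 6.19 and 6.43 at day 17 (-0.08 ± 0.12 SE), and its groups overlapped.

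Both ephrin classes had 1 member that fell. Efna2, an ephrin of the mapping system, stood at 7.14 and 7.01 at day 7 and at 6.38 and 6.52 at day 17, and fell 1.54-fold (-0.62 ± 0.11 SE, adjusted p = 0.0102). Efnb2, ephrin-B2, stood at 8.83 and 9.03 at day 7 and at 7.94 and 8.23 at day 17, and fell 1.79-fold (-0.84 ± 0.16 SE, adjusted p = 0.0165). Both calls depended on single arrays: without the first untreated day 17 array, the adjusted p was 0.053 for Efna2 and 0.086 for Efnb2, and without the second day 7 array it was 0.087 for Efnb2. Efna5, the other ephrin of the mapping system, stood at 7.79 and 7.44 at day 7 and at 7.65 and 7.26 at day 17 (-0.16 ± 0.17 SE). Efnb1 stood at 7.00 and 7.06 at day 7 and at 6.59 and 6.91 at day 17 (-0.28 ± 0.14 SE, adjusted p = 0.285). Efna2 and Efnb2 were thus the 2 of 8 ephrins that passed the test.

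The DNA before Efna2 and Efnb2 is shown because they are the ephrins that fell and RefSeq (GRCm38.p6) lists their start at the outer end of the annotated gene, so the windows hold no base of the annotated gene. Each is the 250 bases before the start, 5′ to 3′ on the gene's strand, with capitals marking matches to the motifs searched. Efna2 is at chr10:80179232-80179481 (plus strand) and Efnb2 at chr8:8661243-8661492 (minus strand).
Efna2: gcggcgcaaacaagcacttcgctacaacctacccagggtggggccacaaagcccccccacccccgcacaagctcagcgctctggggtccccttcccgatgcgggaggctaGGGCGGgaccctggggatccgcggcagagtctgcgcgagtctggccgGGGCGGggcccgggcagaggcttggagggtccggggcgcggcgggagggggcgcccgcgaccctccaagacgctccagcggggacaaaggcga
Efnb2: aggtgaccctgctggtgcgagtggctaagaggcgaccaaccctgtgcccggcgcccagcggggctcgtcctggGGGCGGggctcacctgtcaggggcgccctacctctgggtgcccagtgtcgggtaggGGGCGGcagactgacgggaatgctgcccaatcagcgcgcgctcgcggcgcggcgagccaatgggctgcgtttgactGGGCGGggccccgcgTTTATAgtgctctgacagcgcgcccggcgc
The motifs searched, on both strands, were the core of the hypoxia response element (ACGTG or GCGTG), the GC box (GGGCGG), an ETS factor core (CCGGAAG) and TATAAA, and no 2 matches in the windows printed overlap. Efna2 holds 2 GC boxes, at 140 to 135 and 93 to 88 bases before the start. Efnb2 holds 3, at 177 to 172, 121 to 116 and 45 to 40 bases, and TATAAA on the other strand at 30 to 25 bases. Of 32851 such windows in the table, 38.6% hold the hypoxia core, 32.7% the GC box, 12.4% TATAAA and 6.9% the ETS core. Of the 32 guidance genes with a window, 23 hold the GC box (71.9%), where 35.4% of all genes and 45.8% of protein-coding genes do. The hypoxia core is in 13 of the 32 (40.6%), where 41.5% of all genes and 47.1% of protein-coding genes hold it. For 16 of these 32 genes, among them Robo1, Robo2 and Robo3, the window lies at least in part inside the annotated gene, and none is printed whole. A match describes the letters and shows neither a bound site nor a cause.

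**Figure D2:**
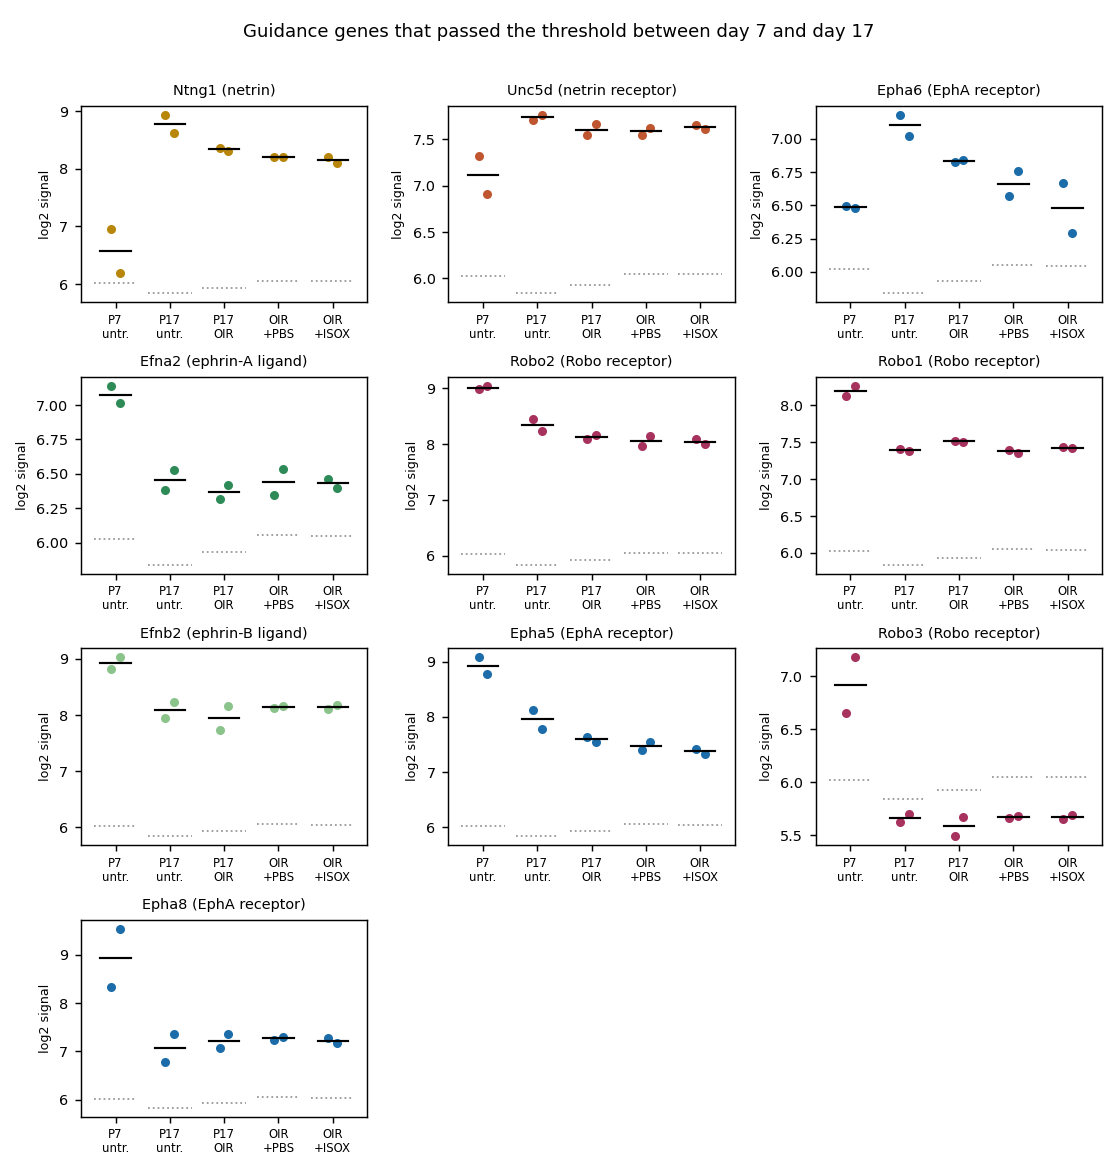
Log2 level of the 10 guidance genes called between the ages on each of the 10 arrays, by group. Points are arrays, black lines are group means and the dotted grey line is the group's mean negative control median; for Ntng1 the day 7 arrays (6.95 and 6.20) lie below all others, and for Robo3 the day 7 arrays (6.65 and 7.18) alone lie above the dotted line.

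Of the 10 calls, Epha5, Ntng1, Robo1, Robo2 and Robo3 were kept in all 10 fits that left out 1 array. The count ranged from 7 to 12 over those fits. It was 5 with array quality weights and 1 with only the 4 arrays compared, settings in which the counts over all genes also fell, from 2454 to 1111 and 345. The 5 calls kept with array weights were Epha5, Epha8, Ntng1, Robo1 and Robo3. Robo2 lost its call under that setting (limma adjusted p 0.052). Cell type markers differ between these ages. The 8 progenitor genes measured averaged 6.86 and 7.31 at day 7 and 5.68 and 5.69 at day 17. The 5 rod genes measured averaged 9.46 and 8.58 at day 7 and 11.18 and 11.30 at day 17, and the 5 bipolar genes 7.75 and 6.68 and then 9.07 and 9.09. The 8 ganglion cell genes measured averaged 8.49 and 7.83 at day 7 and 8.73 and 8.70 at day 17. Their median difference was 0.68, with 6 of 8 above 0 and 0 called. In whole tissue, fewer cells of a type and less RNA per cell cannot be told apart, and the part of these markers in the guidance gene differences was not tested.

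Partners of the families were described from lists of signalling genes. Of 20 partners of Eph receptors and ephrins, 0 rose and 2 fell between day 7 and day 17, where 5.26% of all genes rose and 5.29% fell; the median was -0.21. At 2 of 20, the share called is close to the 10.6% of all genes called. Ptpro, a phosphatase that acts on Eph receptors, stood at 8.87 and 8.73 at day 7 and at 7.82 and 7.88 at day 17, and fell 1.94-fold (-0.96 ± 0.10 SE, adjusted p = 0.0011). Tiam1, an exchange factor for Rac, was the other (-0.59 ± 0.14 SE, adjusted p = 0.0341), and its call was lost in 6 of the 10 fits that left out 1 array, among them those without the first untreated day 17 array or the second day 7 array, and with quantile normalization.

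Of 15 netrin partners tested, 1 rose and 6 fell, beside the same 5.26% and 5.29% of all genes, and the median was -0.20. Ablim1, an actin-binding protein of netrin signalling, stood at 7.28 and 7.10 at day 7 and at 8.56 and 8.67 at day 17, and rose 2.69-fold (1.43 ± 0.12 SE, adjusted p = 5.7e-04). Neo1, neogenin, a netrin receptor related to Dcc, fell 1.48-fold (-0.56 ± 0.09 SE, adjusted p = 0.0088), a call lost with array weights (0.052). Draxin, a secreted guidance protein that binds Dcc and netrins, fell 1.63-fold (-0.71 ± 0.12 SE, adjusted p = 0.0096), a call lost with array weights (0.153). Without the second day 7 array Draxin differed by -0.63, and its call was lost there too. Trio, an exchange factor downstream of Dcc, differed by -0.53 ± 0.11 SE (adjusted p = 0.0227), a call lost with quantile normalization (0.066), without either ISOX DUAL array (0.051), without the first untreated day 17 array (0.106) and without the second day 7 array (0.099). Of 11 slit partners, 1 rose and 2 fell, where 10.6% of all genes were called in either direction, and the median was -0.31. Srgap2 and Srgap3, GTPase-activating proteins that bind Robo receptors, fell 1.78-fold and 1.76-fold (adjusted p of 0.0031 and 0.0108), and Usp33, a deubiquitinase that binds Robo1, rose 1.88-fold (adjusted p = 0.0030). Srgap3 had an adjusted p of 0.059 without the second day 7 array.

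The comparison of uninjected OIR with untreated day 17 retina asked which guidance genes change in the retinopathy. None of the 37 was called by limma, where 0.495% of all genes tested were (115 genes, 106 of them higher). At an unadjusted p under 0.05, 8 of 37 (21.6%) were found, where 6.1% of all genes were: Robo4, Unc5b, Epha2 and Efna1 lay higher and Ephb1, Epha3, Epha5 and Ntn4 lower. For higher genes that is 4 of 37, against 3.41% of all genes, and for lower genes 4 of 37, against 2.69%. The differences of the guidance genes ran from -0.44 to 0.55, with a median of -0.05, beside -0.04 over all genes tested. Both arrays of OIR lay above both untreated arrays for 7 of 37 (9.44% of all genes), and below for 10 of 37 (19% of all genes).

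The genes of largest positive difference included 2 endothelial receptors, and the DNA before them is shown for that reason. For Unc5b it is the 250 bases before the start, at chr10:60831582-60831831 (minus strand). For Robo4 the start listed lies inside the annotated gene, so the 180 bases of the window that precede the gene are given, at chr9:37401722-37401901 (plus strand), again in GRCm38.p6.
Robo4: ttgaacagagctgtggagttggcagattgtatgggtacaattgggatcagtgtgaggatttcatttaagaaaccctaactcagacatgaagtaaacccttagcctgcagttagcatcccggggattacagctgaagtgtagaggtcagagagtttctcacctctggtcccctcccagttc
Unc5b: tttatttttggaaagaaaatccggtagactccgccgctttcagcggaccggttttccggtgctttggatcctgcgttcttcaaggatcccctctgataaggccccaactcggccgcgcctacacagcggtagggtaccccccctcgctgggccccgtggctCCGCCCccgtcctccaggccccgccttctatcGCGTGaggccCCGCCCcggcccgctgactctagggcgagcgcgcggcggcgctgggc
The Robo4 stretch holds none of the 4 motifs searched, which says only that these letters are not in it. The Unc5b window holds 1 hypoxia core match, at 57 to 53 bases before the start, and 2 GC boxes, at 89 to 84 and 47 to 42 bases.

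Robo4, a receptor of endothelial cells that steadies vessels, stood at 6.17 and 6.25 in untreated retina and at 6.81 and 6.62 in uninjected OIR. Both OIR arrays lay above every other array of the study. The difference was 0.51 ± 0.10 SE (adjusted p = 0.137), the smallest p of the 37, and over the fits that left out 1 array the adjusted p ran from 0.136 to 0.702. Unc5b, a netrin receptor of sprouting vessels, stood at 6.29 and 6.56 in untreated retina and at 6.83 and 7.12 in OIR (0.55 ± 0.16 SE, adjusted p = 0.404). Epha2 stood at 5.81 and 6.10 in untreated retina and at 6.37 and 6.54 in OIR (0.49 ± 0.21 SE, adjusted p = 0.812). Its ligand Efna1 stood at 6.35 and 6.46 in untreated retina and at 6.95 and 6.54 in OIR (0.34 ± 0.15 SE, adjusted p = 0.807). The second OIR array of Efna1 lay close to the untreated arrays, so its difference rests mostly on the first. In each of these genes the arrays of both groups were separated, and none passed the adjusted threshold. They were picked by small p in this comparison, which makes such separation likely, so it adds no support. Of all genes tested, 9.44% were separated upward here.

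On the lower side, Ephb1, the receptor that directs ganglion cell axons to the same side of the brain, stood at 7.08 and 7.10 in untreated retina and at 6.75 in both OIR arrays (-0.34 ± 0.10 SE, adjusted p = 0.380). Ephb1 has a second cluster, which lay above the negative control median on 2 of 10 arrays and differed by -0.09 ± 0.19 SE. Epha3 stood at 7.28 and 7.18 in untreated retina and at 6.86 and 6.97 in OIR (-0.31 ± 0.11 SE, adjusted p = 0.658). Epha5 stood at 8.13 and 7.79 and then at 7.64 and 7.54 (-0.37 ± 0.15 SE, adjusted p = 0.752). Ntn4 stood at 6.54 in both untreated arrays and at 6.36 and 6.30 in OIR (-0.21 ± 0.08 SE, adjusted p = 0.740). The groups did not overlap in any of the 4, with differences of -0.21 to -0.37. These genes, too, were picked by small p in this comparison, so their separation adds no support. Of all genes tested, 19% were separated downward here.

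The arterial and venous pair showed no difference beyond its error. Efnb2 stood at 7.94 and 8.23 in untreated retina and at 7.73 and 8.17 in OIR, a difference of -0.14 with a 95% interval from -0.52 to 0.24. Ephb4 stood at 6.19 and 6.43 and then at 6.36 and 6.47, a difference of 0.10 with an interval from -0.18 to 0.39. Changes within those intervals are not excluded by these arrays. The intervals are no limit of detection, since Unc5b, with a difference of 0.55, was not called either. Ntng1 stood at 8.94 and 8.61 in untreated retina and at 8.36 and 8.31 in OIR (-0.44 ± 0.22 SE, adjusted p = 0.945). Its OIR arrays stayed far above the day 7 arrays, at 6.95 and 6.20.

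Other guidance genes with known roles in retina or vessels were not called either. Dcc (-0.22), Efna2 (-0.09), Efna5 (-0.18), Efnb1 (0.04), Epha4 (-0.26), Epha7 (-0.24), Ntn1 (-0.05), Robo1 (0.11), Robo2 (-0.21), Slit1 (-0.09) and Slit2 (-0.05) had adjusted p of 0.908 or more. For 27 of the 37 guidance genes the 95% interval lay within a 1.5-fold change either way, and for 10 it reached past that bound.

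**Figure D3:**
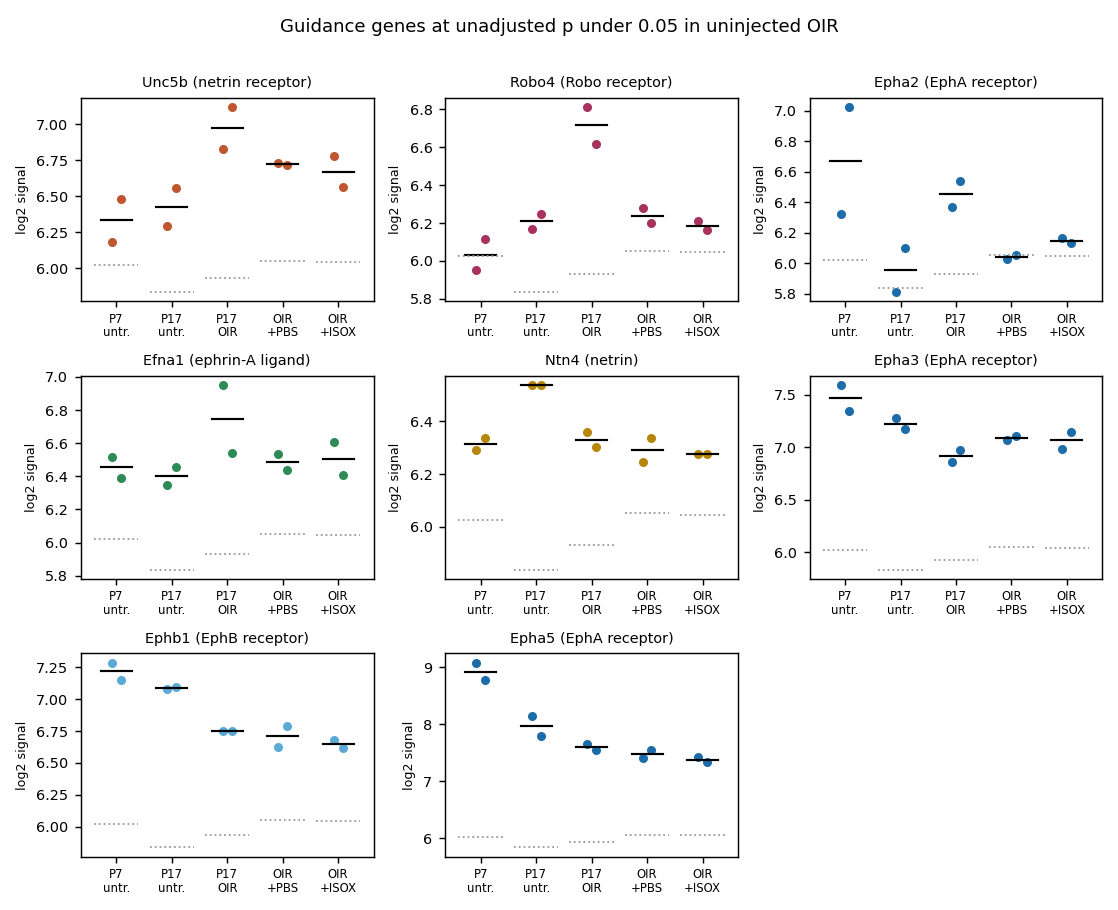
Log2 level on each of the 10 arrays of the guidance genes with an unadjusted p under 0.05 in uninjected OIR against untreated day 17 retina, by group. Points are arrays, black lines are group means and the dotted grey line is the group's mean negative control median; Robo4 in uninjected OIR (6.81 and 6.62) stands above the other day 17 groups, which lie between 6.16 and 6.28.

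Vessel markers lay higher in the same comparison. The 10 endothelial genes averaged 6.89 and 6.75 in untreated retina and 7.29 and 7.12 in uninjected OIR, with 9 of 10 above 0, a median difference of 0.33 and 0 called. On both arrays of a group, 8 of the 10 were above the negative control median in untreated retina and 9 in OIR. The 8 tip cell genes, markers of the leading cell of a sprout, averaged 5.77 and 5.79 and then 6.84 and 6.74, with 3 called higher. The 8 pericyte and smooth muscle genes averaged 6.86 and 6.81 and then 7.55 and 7.33. The 8 ganglion cell genes measured averaged 8.73 and 8.70 and then 8.59 and 8.18. The marker list that differed most was that of reactive glia: its 7 genes averaged 6.40 and 6.37 and then 8.25 and 7.92, with a median difference of 1.82, 7 of 7 above 0 and 6 called higher. The part of these markers in the differences of Robo4, Unc5b or the lower Eph receptors was not tested.

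In the partner lists, Mcam was the 1 gene called in OIR, where 0.495% of all genes tested were called. Mcam, a cell adhesion molecule of endothelium and pericytes reported to bind netrin-1, stood at 6.64 and 6.78 in untreated retina and at 8.25 and 8.29 in uninjected OIR. It rose 2.95-fold (1.56 ± 0.22 SE, adjusted p = 0.0322). The call was lost in 6 of the 10 fits that left out 1 array (any of the 4 arrays compared, or either ISOX DUAL array), with adjusted p up to 0.246. At day 7 Mcam stood at 7.37 and 7.85, and it fell to day 17 (-0.90 ± 0.22 SE, adjusted p = 0.0382), a call lost with quantile normalization (0.057) and in 7 of the 10 fits that left out 1 array. Without the second day 7 array its adjusted p was 0.163. The medians of the partner lists were -0.02 for Eph and ephrin partners, -0.07 for netrin partners and 0.13 for slit partners.

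Both injected groups were then set against uninjected OIR. With PBS, limma called none of the 37 guidance genes, where 0% of all genes tested were called, and 1 of 37 had an unadjusted p under 0.05, where 4.29% of all genes did. With ISOX DUAL, none of the 37 was called, where 0.0043% of all genes were (1 gene), and 2 of 37 had an unadjusted p under 0.05, where 4.29% of all genes did. Differences ran from -0.48 to 0.20 with PBS (median -0.04) and from -0.53 to 0.19 with ISOX DUAL (median -0.03). These comparisons share the uninjected OIR arrays.

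Robo4 had the smallest p in both. It stood at 6.28 and 6.20 with PBS and at 6.21 and 6.16 with ISOX DUAL, all of them below the OIR arrays at 6.81 and 6.62. The difference from uninjected OIR was -0.48 ± 0.10 SE with PBS (adjusted p = 0.494) and -0.53 ± 0.10 SE with ISOX DUAL (adjusted p = 0.394). Between the 2 injected groups it differed by -0.05, with a 95% interval from -0.29 to 0.19. In the same 3 groups, the tip cell genes averaged 6.84 and 6.74 in uninjected OIR, 6.18 and 6.07 with PBS and 5.96 and 5.93 with ISOX DUAL, and the endothelial genes averaged 7.29 and 7.12, then 7.10 and 7.00, then 7.00 and 6.91. The reactive glia genes averaged 8.25 and 7.92, then 7.12 and 7.14, then 7.59 and 7.94. Their part in the Robo4 levels was not tested.

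Other guidance genes of small p in these comparisons had small differences. Epha6 with ISOX DUAL stood at 6.67 and 6.29, against 6.83 and 6.84 in uninjected OIR (-0.36 ± 0.14 SE, adjusted p = 0.991). Unc5b stood at 6.78 and 6.57 with ISOX DUAL, against 6.83 and 7.12 (-0.30 ± 0.16 SE). Unc5c, a netrin receptor best known from the cerebellum, stood at 7.94 and 7.85 with ISOX DUAL and at 7.93 and 7.87 with PBS, against 7.66 and 7.77 in uninjected OIR, differences of 0.18 and 0.19. Epha2 stood at 6.03 and 6.06 with PBS, against 6.37 and 6.54 (-0.41 ± 0.21 SE). None of these passed the adjusted threshold. Slit3 differed by -0.19 with PBS, at levels below the negative control median on all 4 arrays but 1.

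The direct comparison of ISOX DUAL with PBS asked what the inhibitor adds to the injection. None of the 37 guidance genes was called, where 0% of all genes tested were, and 0 of 37 had an unadjusted p under 0.05, where 1.02% of all genes did. Differences ran from -0.18 to 0.21, with a median of -0.01 beside 0.01 over all genes, and 12 of 37 were above 0, against 57% of all genes. The smallest p belonged to Slit3, which lay at 5.92 and 6.04 with ISOX DUAL and at 5.70 and 5.83 with PBS (0.21 ± 0.10 SE), values too close to the negative controls for a fold. Epha6 stood at 6.67 and 6.29 with ISOX DUAL and at 6.57 and 6.76 with PBS (-0.18 ± 0.14 SE), and the groups overlapped. Epha4 stood at 7.50 and 7.48, against 7.58 and 7.69 (-0.15 ± 0.13 SE), and Epha1, below the negative controls throughout, differed by 0.10. For 34 of 37 genes the 95% interval lay within a 1.5-fold change either way. The 3 that reached past it were Epha2, Epha7 and Epha8. The fit pools the spread of all 5 groups, so these intervals may be too wide for the injected groups. Epha8 lay at 7.28 and 7.17 with ISOX DUAL and at 7.24 and 7.30 with PBS, against 8.33 and 9.53 at day 7.

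**Figure D4:**
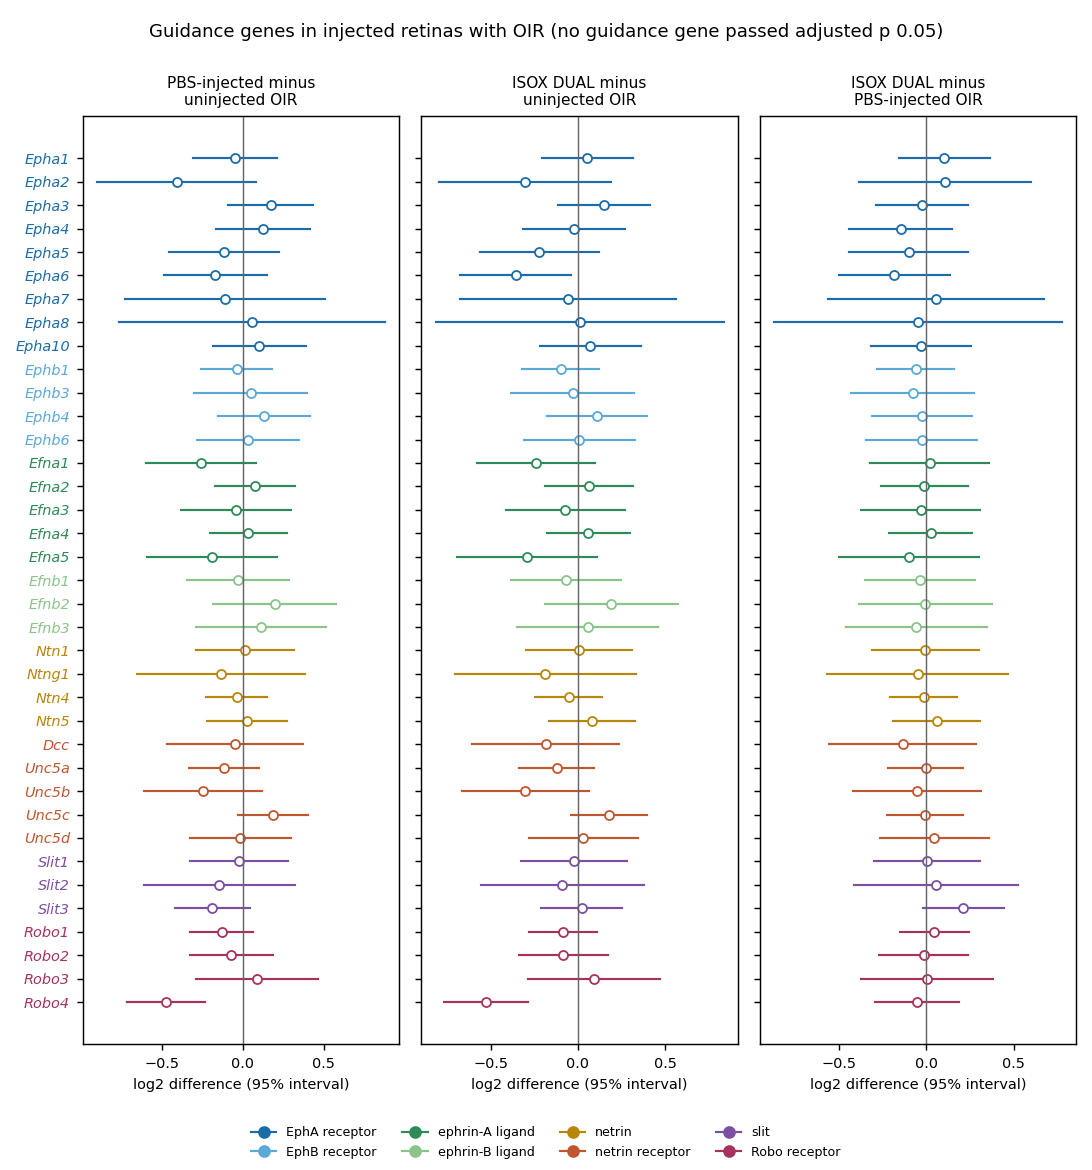
Log2 difference of each of the 37 guidance genes in the comparisons of the injected groups with uninjected OIR and with each other, with points as fitted differences, lines as 95% intervals and colours as gene classes. No point is filled, since no adjusted p was under 0.05; in the comparison of ISOX DUAL with PBS the points run from -0.18 to 0.21, and Robo4 lies at -0.48 and -0.53 against uninjected OIR.

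Each injected group was also compared with untreated day 17 retina. With PBS, limma called none of 37, where 0% of all genes tested were called. With ISOX DUAL, it called none of 37, where 0.0172% of all genes were (4 genes). At an unadjusted p under 0.05, 6 of 37 were lower with PBS (4.71% of all genes) and 7 of 37 were lower with ISOX DUAL (4.5% of all genes). None was higher with either, where 4.43% of all genes were higher with PBS and 3.96% with ISOX DUAL. The 6 with PBS were Ephb1, Epha5, Epha6, Ntn4, Ntng1 and Robo2, and with ISOX DUAL these 6 and Efna5. Both comparisons, and that of uninjected OIR, share the untreated day 17 arrays, so their values are given side by side only.

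Ephb1 stood at 6.63 and 6.79 with PBS and at 6.68 and 6.62 with ISOX DUAL, against 7.08 and 7.10 in untreated retina, differences of -0.38 (adjusted p = 0.535) and -0.44 (adjusted p = 0.268), beside -0.34 in uninjected OIR. Epha5 stood at 7.41 and 7.54 with PBS and at 7.41 and 7.33 with ISOX DUAL, against 8.13 and 7.79, differences of -0.48 and -0.59, beside -0.37. Epha6 stood at 6.57 and 6.76 and at 6.67 and 6.29, against 7.18 and 7.02, differences of -0.44 and -0.62, beside -0.27. In all 3 genes every injected array lay below both untreated arrays. The genes were picked by small p in these comparisons, which makes such separation likely, so it adds no support. The share of all genes separated in this way is not given here.

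Ntn4 stood at 6.25 and 6.34 with PBS and at 6.28 on both ISOX DUAL arrays, against 6.54 on both untreated arrays, differences of -0.25 and -0.26. Ntng1 stood at 8.20 on both PBS arrays and at 8.20 and 8.10 with ISOX DUAL, against 8.94 and 8.61, differences of -0.58 and -0.62. Robo2 stood at 7.96 and 8.15 and at 8.09 and 8.00, against 8.45 and 8.23, differences of -0.28 and -0.29. Efna5 stood at 7.00 and 7.16 and at 6.90 and 7.06, against 7.65 and 7.26, differences of -0.37 and -0.47. These genes, too, were lower on every injected array than on both untreated arrays, and none passed the adjusted threshold. They were likewise picked by small p and share the untreated arrays, so the separation adds no support.

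The 8 ganglion cell markers measured, against 8.73 and 8.70 in untreated retina, averaged 7.59 and 8.34 with PBS and 7.80 and 7.41 with ISOX DUAL, with median differences of -0.73 and -1.08 and 0 of 8 called in either. At an unadjusted p under 0.05, 3 of the 8 were lower with PBS and 7 of the 8 with ISOX DUAL. Lens genes were at their highest on the injected arrays, as given above. The part of these markers in the lower Eph receptors, Ntng1 and Robo2 was not tested. Since no guidance gene was raised in OIR past the threshold (0 of 37, among 106 genes raised in all), none could be counted as both higher in OIR and lowered by ISOX DUAL, whichever control was used.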

How the data were processed

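Levels are the deposited log2 values, 1 for each array and transcript cluster. Trizol RNA was labelled with the WT Terminal Labeling Kit (Affymetrix), per the labels' protocols. How the authors corrected and normalized the arrays is not given in the sources used here. No further normalization was applied. Array medians were 5.55 to 5.68. Between 8.00% and 9.97% of clusters lay above the 95th percentile of an array's negative control probes. Arrays were grouped by their titles.

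A gene is its single-symbol cluster of highest mean, with symbols updated to RefSeq of GRCm38.p6, and was tested if at least 2 arrays exceeded their 30th percentile. All 10 arrays entered 1 model (lmFit and eBayes without trend, limma 3.58.1, R 4.3.3), with 5 residual and 2.76 prior degrees of freedom, and adjusted over 23255 genes with a threshold of 0.05. Precision is limited by the number of arrays. The steps were tested on simulated data. No fold is given where the lower group lies below the median of its negative controls on both arrays.

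Guidance genes were described in full if called, if among the 4 of smallest p in a comparison, or if named for a role in retina or vessels. From each partner list at most 4 genes of smallest p were named, and Efna1, and Mcam between the ages, were added after their values were seen. The genes and lists were chosen with earlier results of these data known. The vessel and other cell markers were lists of known marker genes. Motifs were searched with Python 3.11.15 in RefSeq windows of 250 bases, available for 32 of 37 genes, and only bases outside the annotated gene are printed. Alternatives covered the summary of several clusters, the filter, quantile normalization, the arrays in the fit, an intensity trend, array weights, the replicate number as a block and leaving out each array.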

Additional observations from a re-analysis of the deposited data

How the results depend on the processing

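Under the 8 settings other than leaving out an array, 74 differences of named genes gave 592 values. Of these, 553 kept their direction and their side of the threshold, 34 lost the threshold, 5 gained it and 0 reversed. Most of the 74 differences were not called in the main analysis and could not lose the threshold. Array weights, the replicate blocks, the trend, dropping the filter and fitting only the 4 arrays compared leave a difference itself unchanged, so its sign could not turn there. The 553 is thus no measure of how firm the calls are. Array weights were lowest for day 7 (0.45) and untreated day 17 retina (0.55), against 3.22 for ISOX DUAL. The main analysis pools the spread of these groups with that of groups whose arrays differed less. Its SEs and p-values between the ages may thus be too small, and those between the PBS and ISOX DUAL groups too large. The count of guidance genes called between the ages was 10 in the main analysis, 5 with array weights and 1 with only the 4 arrays compared, which also leaves fewer arrays to estimate the spread. It was 11 with quantile normalization and 7 to 12 without 1 array. In the other 6 comparisons the count was 0 under every setting tried. With the replicate number as a block it was 12 between the ages, and the block moved Dcc (adjusted p = 0.020) and Epha2 (0.043) past the threshold there and ended the call of Mcam in OIR (0.050); the labels do not say what a number marks. Whether the numbers pair arrays is not settled by these data: array 1 minus array 2, taken over all genes, correlated at 0.583 to 0.809 among the 3 uninjected groups and at 0.399 for the injected pair; across injection status it was -0.406 to -0.0567. A crossed block in the injected groups, chosen after seeing the data, also called 12. Leaving out 1 array leaves a group with 1, which is assumed to vary like the others. It turned the sign of small differences. Between the ages the ranges were -0.356 to 0.0354 for Efna5, -0.214 to 0.0575 for Ephb4, -0.0932 to 0.220 for Ntn1, -0.16 to 0.13 for Slit1 and -0.0593 to 0.245 for Unc5b. In uninjected OIR against untreated retina they were -0.499 to 0.0672 for Dcc, -0.378 to 0.0128 for Efna5, -0.12 to 0.21 for Efnb1, -0.362 to 0.0783 for Efnb2, -0.506 to 0.0241 for Epha7, -0.0174 to 0.219 for Ephb4, -0.161 to 0.0686 for Ntn1, -0.207 to 0.0302 for Slit1 and -0.175 to 0.0728 for Slit2. For ISOX DUAL against PBS, Epha6 ran from -0.37 to 0.0024. None of these 15 differences was called. Other uncalled values moved without turning: in OIR, Epha5 ran from -0.54 to -0.19 and Robo2 from -0.32 to -0.0997, and Epha6 with ISOX DUAL against uninjected OIR from -0.54 to -0.17. The causes were not tested. Genes near the negative controls (Epha1, Robo3, Slit3, Ntn1, Epha2 and Robo4) are limited by signal over background.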
